A study of Homo sapiens with 32 samples.

Results

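The cereblon ubiquitin ligase and the proteins that myeloma drugs direct it to were followed at the transcript level in MM.1S, a line of human multiple myeloma cells. Of the 24249 genes in the deposited expression table, 9 were chosen by symbol: CRBN, DDB1, CUL4A, CUL4B and RBX1 for the ligase, and IKZF1, IKZF3, CSNK1A1 and ZFP91 for its drug-dependent substrates. Every one of them passed the filter on low values and entered the tests. Cells had a pulse of 1 h with the vehicle DMSO or with carfilzomib (Cfz), an irreversible proteasome inhibitor, followed by 12 h in fresh medium that held DMSO or 10 µM all-trans retinoic acid (ATRA), the ligand of the retinoic acid receptors. The 4 groups were DMSO after a DMSO pulse (called DMSO, 3 libraries), ATRA after a DMSO pulse (ATRA, 3 libraries), DMSO after a carfilzomib pulse (Cfz, 1 library) and ATRA after a carfilzomib pulse (ATRA+Cfz, 1 library). All groups are the same unmodified line, no group received a cereblon-binding drug, and no dose of carfilzomib is stated in the labels. Since it is not stated either that libraries of a group are separate cultures, p-values measure only the spread between these libraries, which may be technical.

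Cereblon is the substrate receptor of a cullin-RING ubiquitin ligase. The adaptor DDB1 ties it to a cullin scaffold, CUL4A or CUL4B, whose other end holds the RING protein RBX1 and, through it, a ubiquitin-conjugating enzyme. Thalidomide, lenalidomide and pomalidomide bind cereblon and change which proteins it recruits: in myeloma cells the zinc finger transcription factors Ikaros (IKZF1) and Aiolos (IKZF3) are ubiquitinated and degraded, and the transcription factors IRF4 and MYC decline afterwards. Casein kinase 1 alpha (CSNK1A1) and the zinc finger protein ZFP91 are further substrates that depend on the drug. The values below are transcript levels, which do not measure protein or ligase activity.

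Depth was 14136937 to 17155331 recovered reads per library, and levels are in FPM, fragments scaled to 1000000 per lane, averaged over the 4 lanes of each library. The library DMSO 3 stood apart from the other controls: its gene counts differed from those of DMSO 1 and DMSO 2 by 10.5 and 11.0 (chi-square divided by its degrees of freedom), while DMSO 1 and DMSO 2 differed by 1.81. Mitochondrially encoded genes took 5.85% of its reads, 4.09 to 4.12% in the other controls, 3.67 to 3.89% with ATRA, 5.43% with Cfz and 5.72% with ATRA+Cfz, and the part of this in the results was not tested. Plasma cell transcripts were abundant in every library (SDC1 330 to 1270 FPM, XBP1 800 to 2656 FPM, IRF4 830 to 1217 FPM). With ATRA 6 of 7 plasma cell markers rose while IRF4 fell, beside 21.3% of all genes tested higher and 27.4% lower. Markers of other cells that could be measured were at or near 0 (CD14 and COL1A1 at most 0.257 and 0.232 FPM, CD3E at most 1.54 FPM), the highest being EPCAM, 0.292 to 3.34 FPM.

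ATRA alone was followed by small changes in 6 of the 9 genes. Transcripts of the drug-dependent transcription factor substrates IKZF1 and IKZF3 rose by 27.4% and 24.9%, the receptor CRBN by 10.9% and its adaptor DDB1 by 10.5%. CSNK1A1 fell by 10.1% and ZFP91 fell by 13.6%. The scaffolds CUL4A and CUL4B and the RING protein RBX1 were not called. Calls are Benjamini-Hochberg adjusted p-values under 0.05 from limma, fitted over 15827 genes on log2(FPM + 0.5). Of all genes tested, 48.7% were called in this comparison, 21.3% higher and 27.4% lower, and 68.6% were called among the 4694 genes at least as abundant as the lowest of the 9. The share of 6 in 9 is near this background. The median difference of the 9 genes was 0.05 on the log2 scale, beside -0.03 over all genes tested. In these bulk samples a change in the mix of cells and a change in RNA per cell cannot be told apart.

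Carfilzomib followed by ATRA gave the largest differences of the whole set, in opposite directions within the ligase. RBX1 fell by 34.7% and CRBN rose by 42.2% against DMSO, while ZFP91 fell by 14.4%. These were 3 of 9 genes, beside 50.6% of all genes called (20% higher, 30.5% lower) and 68.6% of those as abundant. After carfilzomib alone 1 of 9 genes was called, beside 24.9% of all genes (7.94% higher, 17% lower) and 42.1% of those as abundant. That gene was IKZF1, which fell by 17.8%. Scaling by median of ratios moved the split of Cfz calls over all genes from 1257 higher and 2691 lower to 1638 higher and 1787 lower, edgeR to 1499 and 2057, and DESeq2 turned it to 1069 higher and 944 lower. The Cfz and ATRA+Cfz groups have 1 library each, with no replicate check, and their spread is borrowed from the DMSO and ATRA libraries. The plot of levels by library shows the 9 genes side by side.

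**Figure D1:**
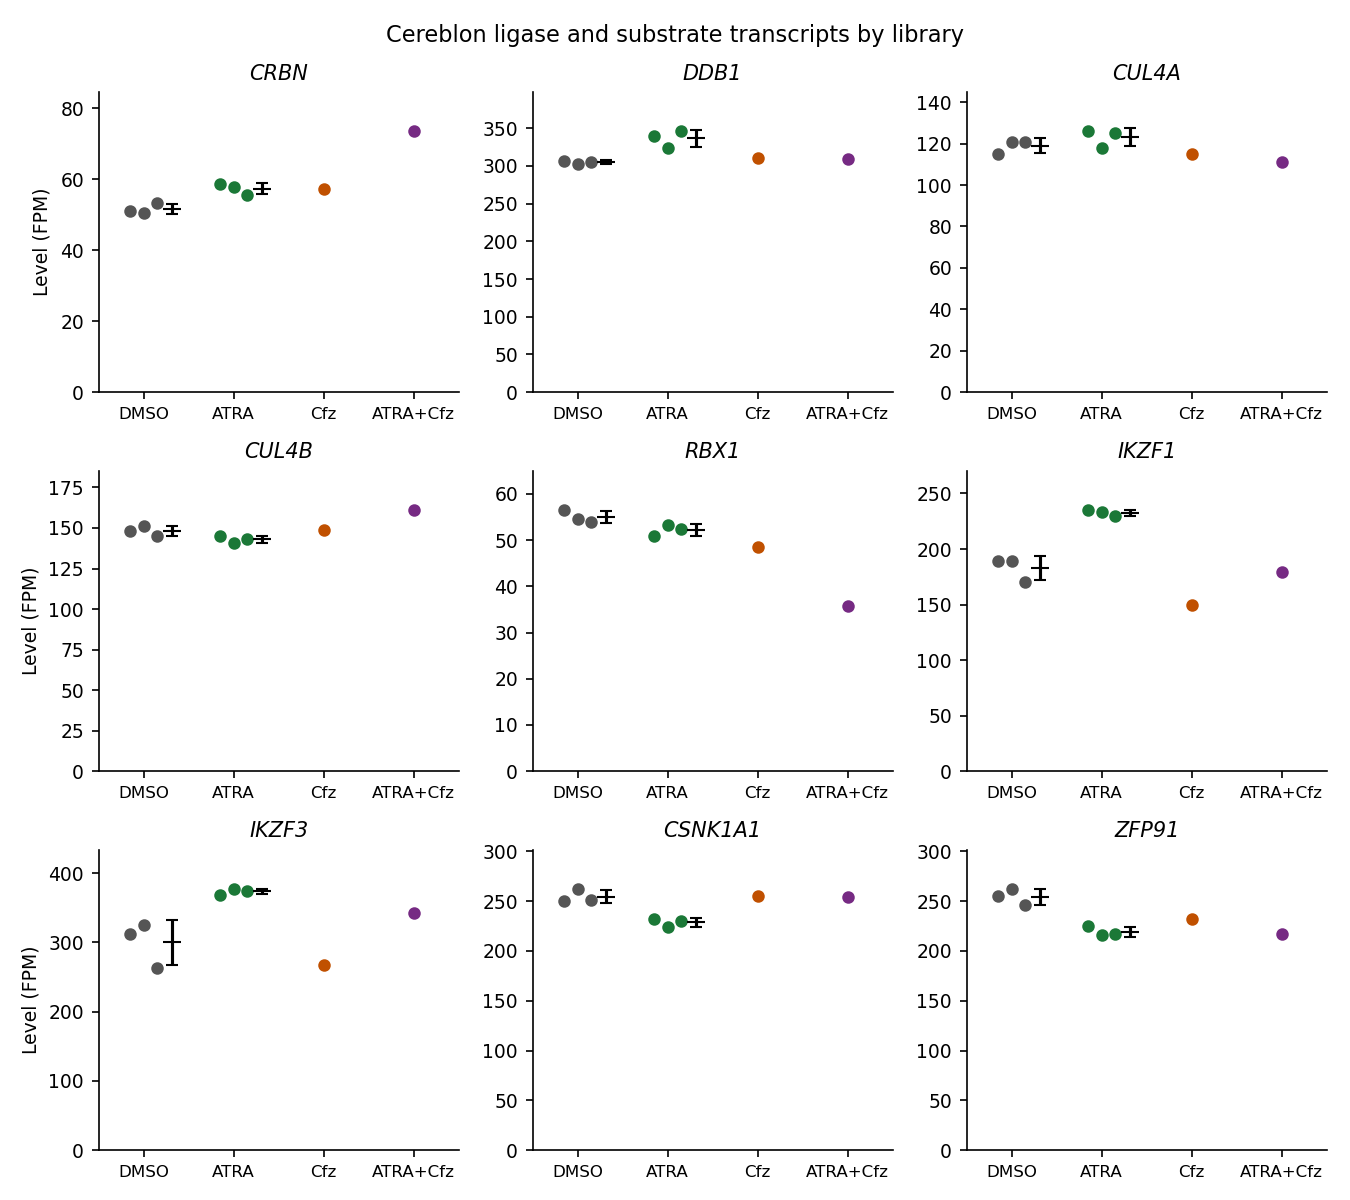
Transcript level (FPM, vertical axes from 0) of the 9 genes in each of the 8 libraries, by treatment on the horizontal axes. Points are libraries, and the black bar beside the 3 DMSO and the 3 ATRA libraries is their mean ± SD. CRBN is highest (73.5 FPM) and RBX1 lowest (35.7 FPM) in the ATRA+Cfz library, and IKZF1 and IKZF3 are highest in the 3 ATRA libraries.

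CRBN, the receptor that binds the drugs, was measured at 51.0, 50.4 and 53.3 FPM in DMSO 1 to 3, at 58.6, 57.7 and 55.5 FPM in ATRA 1 to 3, at 57.3 FPM with Cfz and at 73.5 FPM with ATRA+Cfz. Every treated library was above every control, and the ATRA+Cfz library was highest of the 8. The group means were 51.6 ± 1.6 FPM (SD, n = 3) with DMSO and 57.3 ± 1.6 FPM (SD, n = 3) with ATRA. The log2 difference with ATRA was 0.15 ± 0.04 (SE; limma adjusted p = 0.016). That call was lost when DMSO 2, ATRA 1 or ATRA 2 was left out (0.13, 0.13 and 0.14; limma adjusted p = 0.06, 0.068 and 0.056), and the second lane alone gave 0.00. Cfz gave the same log2 difference of 0.15 with a larger error (± 0.06; limma adjusted p = 0.11), called as 0.18 without DMSO 3 (limma adjusted p = 0.025) and as 0.22 with median-of-ratios scaling (limma adjusted p = 0.036). ATRA+Cfz stood at 0.51 ± 0.06 over DMSO (limma adjusted p = 3.7e-05), at 0.36 ± 0.06 over ATRA (limma adjusted p = 1.4e-03) and at 0.36 ± 0.08 over Cfz (limma adjusted p = 4.6e-03). In lanes used alone, which hold fewer reads, not all of these calls held. Lane 4 gave 0.31 over DMSO and 0.16 over ATRA, neither called, and lane 3 gave 0.35 over ATRA, not called. Over Cfz, lanes 1 to 4 gave 0.43, 0.27, 0.40 and 0.32, with no call in any. CRBN rested on 797 to 1040 reads per library, the TRNT1 gene on the opposite strand overlaps it at up to 20.2 FPM, and whether the counting used strand is not stated.

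The 250 bases before the CRBN start are shown because CRBN had the largest rise of the set with ATRA+Cfz. They lie at chr3:3179718-3179967 on the minus strand (RefSeq, GRCh38.p14; the submitters' own build is not stated) and are 71.2% G or C, beside a median of 58% over 35116 RefSeq promoters.
CRBN: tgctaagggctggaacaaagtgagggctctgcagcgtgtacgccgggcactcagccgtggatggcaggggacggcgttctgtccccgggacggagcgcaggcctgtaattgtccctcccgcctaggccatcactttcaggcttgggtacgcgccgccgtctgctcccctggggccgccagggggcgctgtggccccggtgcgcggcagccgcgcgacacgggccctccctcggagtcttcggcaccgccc
The motifs below were searched on both strands, with matches set in capitals: the E-box CACGTG (in 6.34% of all promoters in the same window), the retinoic acid receptor core AGGTCA (12.1%), its direct repeat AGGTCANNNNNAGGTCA (0.00285%), the antioxidant response core TGACNNNGC (10.9%), the heat shock element GAANNTTC (5.78%) and the Ikaros core TGGGAA (20.8%). None of these letters was found in this CRBN window, which says nothing about binding of the factors.

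DDB1, the adaptor that joins cereblon and other receptors to the cullin, rose with ATRA after a DMSO pulse. It stood at 307, 302 and 305 FPM in DMSO 1 to 3, at 340, 324 and 346 FPM in ATRA 1 to 3, at 310 FPM with Cfz and at 309 FPM with ATRA+Cfz. All ATRA libraries were above all others, and both libraries with carfilzomib were just above the controls. The ATRA difference was 0.14 ± 0.03 (log2, SE; limma adjusted p = 4.7e-03), and the ATRA difference after Cfz was -0.00 ± 0.06 (limma adjusted p = 0.98). The test of the difference between those differences gave -0.15 ± 0.07 (limma adjusted p = 0.3) and did not separate them. TKFC overlaps DDB1 on the opposite strand at up to 44.3 FPM.

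The cullin scaffolds differed little between groups. CUL4A ranged from 111 FPM in the ATRA+Cfz library, the lowest of the 8, to 126 FPM in ATRA 1, and none of its differences from DMSO was called: 0.05 with ATRA, -0.05 with Cfz and -0.10 with ATRA+Cfz on the log2 scale (limma adjusted p = 0.32, 0.58 and 0.15). Its DMSO and ATRA libraries overlapped. For CUL4A, ATRA+Cfz against ATRA gave -0.15 ± 0.06 (log2 ± SE, limma adjusted p = 0.06). That difference was called without DMSO 3 (-0.15, limma adjusted p = 0.014) and without ATRA 2 (-0.18, limma adjusted p = 0.049). It was also called with a filter at 5 FPM (-0.15, limma adjusted p = 0.044), and was 0.01 in lane 4 alone. CUL4B stood at 148, 151 and 145 FPM in DMSO 1 to 3, at 145, 141 and 143 FPM in ATRA 1 to 3, at 149 FPM with Cfz and at 161 FPM with ATRA+Cfz. The ATRA+Cfz library was highest of the 8 and the other groups overlapped. Against ATRA it was 0.17 ± 0.05 higher (log2, SE; limma adjusted p = 0.021), a call lost without ATRA 2 or ATRA 3 (limma adjusted p = 0.068 and 0.054). Against DMSO the difference was 0.12 ± 0.05 (limma adjusted p = 0.061), called without DMSO 3 (0.10; limma adjusted p = 0.033), with edgeR (0.20; adjusted p = 5.4e-03) and with DESeq2 (0.19; adjusted p = 0.038). PCID2 overlaps CUL4A on the opposite strand at up to 52.8 FPM.

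RBX1, the RING protein that recruits the ubiquitin-conjugating enzyme and serves most cullins, had the largest difference of the 9 genes. Its levels were 56.5, 54.5 and 54.0 FPM in DMSO 1 to 3, 50.8, 53.3 and 52.5 FPM in ATRA 1 to 3, 48.5 FPM with Cfz and 35.7 FPM with ATRA+Cfz. The ATRA+Cfz library was far below the rest, the Cfz library was below all DMSO and ATRA libraries, and the ATRA libraries were just below the controls. ATRA+Cfz differed from DMSO by -0.62 ± 0.06 (log2, SE; limma adjusted p = 8.4e-06), from ATRA by -0.54 ± 0.06 (limma adjusted p = 1.1e-04) and from Cfz by -0.44 ± 0.08 (limma adjusted p = 1.4e-03). Each treatment alone fell short of a call: -0.07 ± 0.04 with ATRA (limma adjusted p = 0.2) and -0.18 ± 0.06 with Cfz (limma adjusted p = 0.06), the latter called as -0.19 without DMSO 3 (limma adjusted p = 0.021). The ATRA difference after Cfz minus that without it was -0.36 ± 0.09 (limma adjusted p = 0.062), and was called without DMSO 3 (-0.35; limma adjusted p = 0.012), with median-of-ratios scaling (-0.41; limma adjusted p = 0.033) and with a filter at 5 FPM (-0.36; limma adjusted p = 0.046). In the second lane alone, ATRA+Cfz against Cfz was -0.13 (limma adjusted p = 0.59).

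The 250 bases before the RBX1 start are shown because RBX1 had the largest fall. They lie at chr22:40951128-40951377 on the plus strand (RefSeq, GRCh38.p14) and are 76.8% G or C. Capitals mark an E-box, CACGTG, from -117 to -112 relative to the start, and an antioxidant response core, TGACNNNGC, on the other strand from -124 to -116, which share bases.
RBX1: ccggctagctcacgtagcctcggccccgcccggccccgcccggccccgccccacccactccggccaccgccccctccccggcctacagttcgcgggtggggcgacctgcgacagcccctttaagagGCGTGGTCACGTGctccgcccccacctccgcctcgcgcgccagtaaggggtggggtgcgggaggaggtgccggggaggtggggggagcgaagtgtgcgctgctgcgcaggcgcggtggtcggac
These matches are a description of the letters, since 6.34% and 10.9% of all promoters hold such a match.

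IKZF1, which encodes Ikaros, moved with both treatments in opposite directions. Its levels were 189, 189 and 170 FPM in DMSO 1 to 3, 235, 233 and 230 FPM in ATRA 1 to 3, 150 FPM with Cfz and 179 FPM with ATRA+Cfz. All ATRA libraries were above all others, the Cfz library was lowest of the 8, and the ATRA+Cfz library lay among the controls. With ATRA it rose by 0.35 ± 0.04 (log2, SE; limma adjusted p = 4.9e-05). With Cfz it fell by 0.28 ± 0.06 (log2, SE; limma adjusted p = 7.6e-03), and in ATRA-treated cells the Cfz difference was -0.37 ± 0.06 (limma adjusted p = 1.0e-03). After Cfz, ATRA was followed by a difference of 0.26 ± 0.08 (limma adjusted p = 0.026), which was at adjusted p = 0.05 in limma, not called, without ATRA 1 or ATRA 2. ATRA+Cfz did not differ detectably from DMSO (-0.02, 95% interval -0.16 to 0.11; limma adjusted p = 0.77). The test of whether the ATRA difference depended on carfilzomib gave -0.09 ± 0.09 (limma adjusted p = 0.64).

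The 250 bases before the most upstream of the RefSeq starts of IKZF1 are shown because IKZF1 had the largest ATRA rise of the set. They lie at chr7:50304466-50304715 on the plus strand (RefSeq, GRCh38.p14) and are 71.2% G or C. Capitals mark a match to the Ikaros core, TGGGAA, from -32 to -27 relative to the start.
IKZF1: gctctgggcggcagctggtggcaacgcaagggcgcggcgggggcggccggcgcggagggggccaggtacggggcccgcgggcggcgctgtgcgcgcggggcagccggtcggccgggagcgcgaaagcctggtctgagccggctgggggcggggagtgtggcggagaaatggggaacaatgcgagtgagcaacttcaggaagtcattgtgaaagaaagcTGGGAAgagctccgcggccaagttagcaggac
Of all promoters, 20.8% hold such a match in this window. RefSeq promoters were matched for 8 of the 9 genes, in 18 entries, and the core AGGTCA was found in ZFP91 alone among them, from -210 to -205.

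IKZF3, which encodes Aiolos, rose with ATRA like its family member IKZF1. It stood at 312, 325 and 263 FPM in DMSO 1 to 3, at 369, 377 and 375 FPM in ATRA 1 to 3, at 268 FPM with Cfz and at 342 FPM with ATRA+Cfz. ATRA libraries were above all others, ATRA+Cfz was next, and the Cfz library lay between DMSO 3 and the other controls. The mean rose from 300 ± 33 FPM (SD, n = 3) to 373 ± 4.1 FPM (SD, n = 3), a log2 difference of 0.32 ± 0.06 (SE; limma adjusted p = 1.4e-03). DMSO 3 was the lowest control for IKZF1 and IKZF3 alike, and without it the ATRA differences were 0.30 and 0.23 (limma adjusted p = 6.8e-08 and 8.9e-07). Without it, too, IKZF3 was called after Cfz (-0.25; limma adjusted p = 3.1e-05) and with ATRA+Cfz (0.10; limma adjusted p = 0.018), where all libraries gave -0.15 (limma adjusted p = 0.25) and 0.19 (limma adjusted p = 0.098). The ATRA+Cfz difference was also called without DMSO 2 (0.25; limma adjusted p = 0.026), with median-of-ratios scaling (0.25; limma adjusted p = 0.028), and with edgeR and DESeq2 (0.26 in both; adjusted p = 0.019 and 0.013). After Cfz, ATRA was followed by a rise of 0.35 ± 0.11 (limma adjusted p = 0.034), a call lost without any 1 of the ATRA libraries (limma adjusted p = 0.056 to 0.062) and with robust empirical Bayes (limma adjusted p = 0.077).

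CSNK1A1, a kinase that lenalidomide in particular makes a cereblon substrate, fell with ATRA. It stood at 250, 262 and 251 FPM in DMSO 1 to 3, at 232, 224 and 230 FPM in ATRA 1 to 3, at 255 FPM with Cfz and at 254 FPM with ATRA+Cfz. The ATRA libraries were below all others, and both carfilzomib libraries lay within the controls. The ATRA difference was -0.15 ± 0.03 (log2, SE; limma adjusted p = 3.1e-03) and was at -0.12 with DESeq2 (adjusted p = 0.05, not called). In ATRA-treated cells carfilzomib was followed by a difference of 0.15 ± 0.05 (limma adjusted p = 0.035), lost without any 1 of the ATRA libraries (limma adjusted p = 0.063 to 0.11). The gene AC021078.1 overlaps the CSNK1A1 gene on the same strand at up to 37.7 FPM, and whether their exons share bases was not tested.

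ZFP91, a zinc finger protein and cereblon substrate with each of the thalidomide analogues, was lower in every treated library. Levels were 255, 262 and 246 FPM in DMSO 1 to 3, 225, 216 and 217 FPM in ATRA 1 to 3, 232 FPM with Cfz and 217 FPM with ATRA+Cfz. The ATRA+Cfz library lay among the ATRA libraries, and the Cfz library lay between them and the controls. ZFP91 fell with ATRA (-0.21 ± 0.04, log2, SE; limma adjusted p = 4.6e-04) and with ATRA+Cfz (-0.22 ± 0.05; limma adjusted p = 3.2e-03), the latter at -0.16 and not called with DESeq2 (adjusted p = 0.066). With Cfz the difference was -0.13 ± 0.05 (limma adjusted p = 0.088), called as -0.15 without DMSO 3 (limma adjusted p = 4.1e-03). ATRA+Cfz against ATRA gave -0.01 (95% interval -0.13 to 0.10; limma adjusted p = 0.88).

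**Figure D2:**
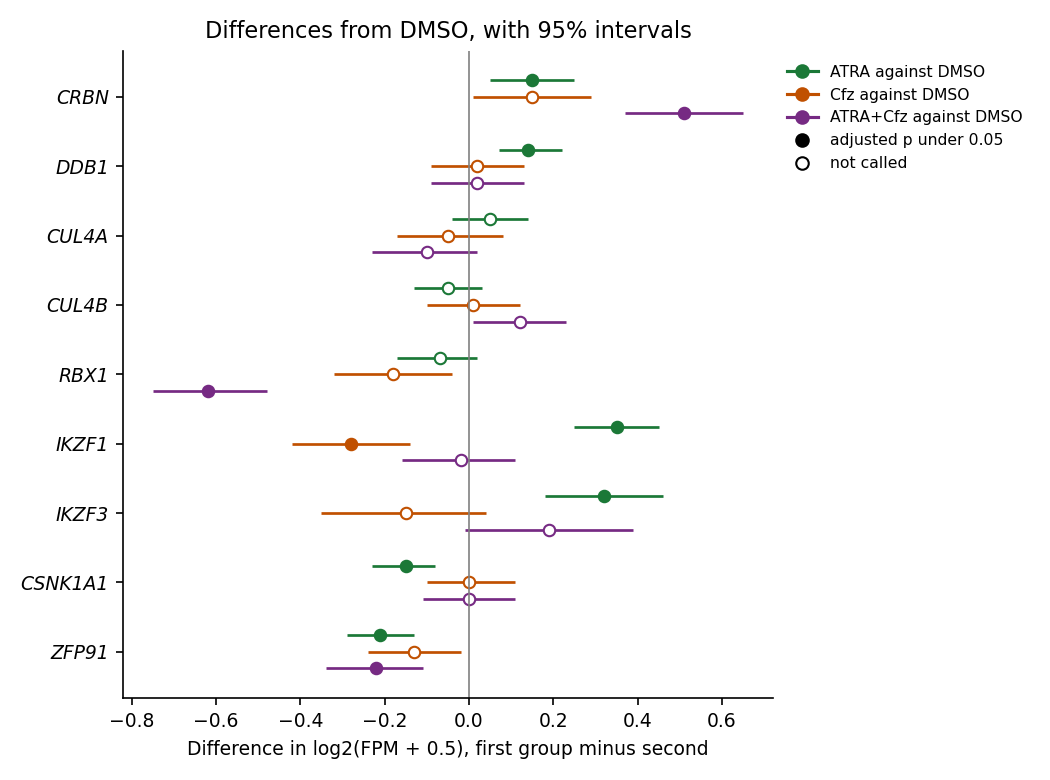
Difference in log2(FPM + 0.5) from DMSO (horizontal axis) for the 9 genes (vertical axis) with ATRA, Cfz and ATRA+Cfz; lines are 95% intervals from limma, filled points are adjusted p-values under 0.05. RBX1 at -0.62 and CRBN at 0.51 with ATRA+Cfz lie farthest from 0, and IKZF1 is the only filled Cfz point, at -0.28.

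Over the groups, the libraries of ATRA and DMSO did not overlap for 7 of the 9 genes, against 56.6% of all genes tested. The ATRA+Cfz library was highest of the 8 for CRBN and CUL4B and lowest for CUL4A and RBX1, against 20.5% and 28.5% of all genes tested. The Cfz library was lowest of the 8 for IKZF1 alone, against 17.8%. With all libraries, carfilzomib in ATRA-treated cells was followed by calls in 5 of 9 genes (30.9% of all genes) and ATRA after carfilzomib by calls in 4 of 9 (30.4% of all genes). No share among genes as abundant as the 9 was taken for these comparisons. In each comparison against DMSO that share was above the share over all genes, so the 9 genes cannot be set apart from the background here. Leaving out DMSO 3 raised the calls to 5 for Cfz against DMSO, to 5 for ATRA+Cfz against DMSO and to 8 for ATRA+Cfz against ATRA, and raised those over all genes from 3948 to 5449, from 8002 to 8785 and from 4884 to 6392. The comparisons against DMSO share the same control libraries, so their values for a gene are not independent.

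**Figure D3:**
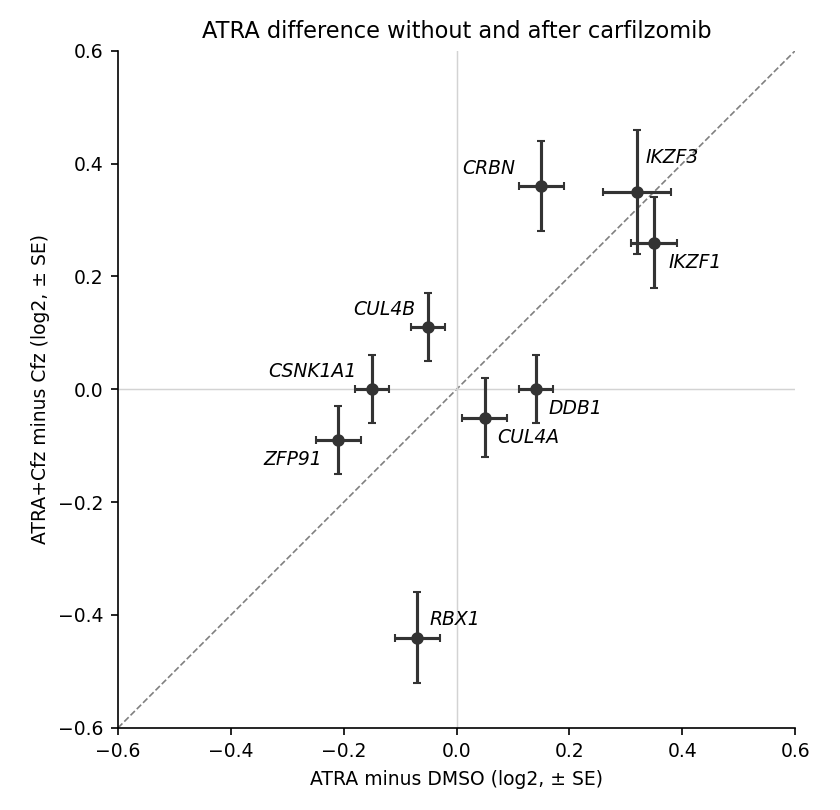
Log2 difference with ATRA after a DMSO pulse (horizontal axis) and after a carfilzomib pulse (vertical axis) for the 9 genes; bars are ± SE from limma and the dashed line marks equal differences. RBX1 lies farthest from the line (-0.07 and -0.44), while IKZF1 (0.35 and 0.26) and IKZF3 (0.32 and 0.35) lie near it.

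None of the 9 genes was called in the test of whether the ATRA difference depended on the pulse, against 2.3% of all genes tested in limma. RBX1, CRBN and CUL4B had an unadjusted limma p under 0.05 there (1.9e-03, 0.041 and 0.038), as did 2858 of the 15827 genes tested. With edgeR and DESeq2, 0 of 9 were called as well. Without DMSO 3, RBX1 and CUL4B were called (CUL4B 0.18; limma adjusted p = 0.04), and calls over all genes rose from 364 to 1986.

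How abundant the genes were relative to each other depended on the length used to scale them. Per kilobase of the principal transcript, CSNK1A1 was highest with DMSO at 231 FPM per kilobase and CRBN lowest at 23.4. Per kilobase of all exons joined, ZFP91 was highest at 48.7 and CRBN lowest at 6.39. CRBN was thus the least abundant of the 9 with DMSO on both scales, and the order of the others was not stable. Per kilobase of the principal transcript, IKZF1 was below CRBN with Cfz (23.8 and 26 FPM per kilobase), and with ATRA+Cfz both IKZF1 (28.5) and RBX1 (30.1) were below CRBN (33.3). Per kilobase of all exons joined, CRBN stayed lowest with Cfz (7.1, beside 13.7 for IKZF1). The same held with ATRA+Cfz (9.11, beside 11.6 for RBX1 and 16.4 for IKZF1). By the principal transcripts with DMSO, RBX1 stood at 46.3, CUL4A at 50.3, CUL4B at 45.3 and DDB1 at 67.6 FPM per kilobase. RBX1 in DMSO 1 to 3 ranged from 45.4 to 47.6 and CUL4B from 44.4 to 46.3, so these neighbours were not separated by their spread.

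Other genes tracked the 9 genes across the 8 libraries, given here as Pearson correlations of log2(FPM + 0.5) over 9154 genes of at least 10 FPM, with no test, since the libraries share 4 treatments. The closest to CRBN were ZNF674 (r = 0.995), TYW3 (0.989) and XPOT (0.988). RBX1 was nearest to DCTPP1 (0.992), RANGAP1 (0.990) and MTHFD1 (0.989). For IKZF1 these were MINPP1, TAFA5 and PYCR1 (each 0.996), for IKZF3 PEAK1 (0.991), DIXDC1 (0.991) and AC134878.2 (0.986), and for ZFP91 SMAD1 (0.992), SDHAP1 (0.987) and STRN (0.986). The remaining genes had weaker neighbours: TRMT1 for DDB1 (0.968), PEX2 for CUL4A (0.949), POLR2J3 for CUL4B (0.975) and ZFYVE16 for CSNK1A1 (0.971). Among the pairs within the set, IKZF1 and IKZF3 had the highest r over the 8 libraries (0.91) and CRBN and RBX1 the lowest (-0.95). Other pairs lay between, such as DDB1 and CSNK1A1 (-0.85) and CRBN and DDB1 (0.12).

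Substrate receptors and adaptors that share DDB1 and the cullins with cereblon were counted beside all genes tested, whose calls also lean lower. Of 25 tested, 4 rose and 11 fell with ATRA, beside 21.3% of all genes higher and 27.4% lower. With Cfz 0 rose and 10 fell, beside 7.94% and 17%, and with ATRA+Cfz 4 rose and 10 fell, beside 20% and 30.5%. Their median log2 differences were -0.07, -0.06 and -0.14, beside -0.03, -0.08 and -0.05 over all genes. DESeq2 called 7 with ATRA and 4 with Cfz. Over all genes DESeq2 called 5869 and 2013, beside 7704 and 3948 in limma. DTL, the receptor that marks replication licensing factors for degradation, stood at 207, 206 and 202 FPM in DMSO 1 to 3, at 114, 119 and 118 FPM with ATRA, at 146 FPM with Cfz and at 62.7 FPM with ATRA+Cfz. Treated libraries were all below the controls, and the ATRA+Cfz library was lowest. Its log2 differences from DMSO were -0.81, -0.48 and -1.70 (limma adjusted p = 9.2e-09, 6.2e-05 and 9.4e-10). DCAF15, the receptor that aryl sulfonamide drugs bind, differed by -0.58 with ATRA and by -1.07 with ATRA+Cfz on the log2 scale (limma adjusted p = 6.0e-05 and 6.3e-06), and DDB2, the damaged-DNA receptor, by -0.61 and -1.11 (limma adjusted p = 1.9e-04 and 2.3e-05). DCAF8 rose by 0.36 with ATRA and by 0.70 with ATRA+Cfz (limma adjusted p = 2.0e-06 and 1.6e-07). The Cfz calls with a fall were led by DTL, WDTC1 (-0.51; limma adjusted p = 3.3e-04) and PHIP (-0.25; limma adjusted p = 2.3e-03).

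Genes of the NEDD8 cycle, which activates cullins, of the COP9 signalosome, which removes NEDD8, and of helper enzymes were called in both directions. Of 27 tested, 7 rose and 5 fell with ATRA, 4 rose and 5 fell with Cfz, and 9 rose and 7 fell with ATRA+Cfz, with median log2 differences of 0.04, -0.04 and 0.08. Over all genes 48.7%, 24.9% and 50.6% were called, so 12, 9 and 16 of 27 are not far from the background. DESeq2 called 4 with Cfz, and 2013 over all genes, beside 3948 in limma. UBE2G1, the enzyme that extends ubiquitin chains on drug-recruited cereblon substrates, had the largest rise of any listed gene. It stood at 185, 185 and 211 FPM in DMSO 1 to 3, at 651, 655 and 661 FPM in ATRA 1 to 3, at 182 FPM with Cfz and at 699 FPM with ATRA+Cfz. Libraries with ATRA were all far above those without, and the Cfz library was just below the controls. The log2 differences were 1.76 with ATRA and 1.85 with ATRA+Cfz (limma adjusted p = 2.8e-10 and 3.5e-09), and -0.09 with Cfz (limma adjusted p = 0.4). UBE2M, the NEDD8-conjugating enzyme that acts with RBX1, rose by 0.34 with ATRA, 0.50 with Cfz and 0.46 with ATRA+Cfz (limma adjusted p = 3.4e-05, 1.4e-04 and 4.4e-05). COPS2, a signalosome subunit, rose by 0.13, 0.28 and 0.48 (limma adjusted p = 6.5e-03, 1.6e-03 and 6.5e-06).

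Paralogues of the 9 genes were called in both directions. Of 15 tested, 5 rose and 4 fell with ATRA, 1 rose and 1 fell with Cfz, and 5 rose and 3 fell with ATRA+Cfz, with median log2 differences of -0.06, -0.04 and -0.01. This compares with calls in 48.7%, 24.9% and 50.6% of all genes. CUL7, another cullin, rose by 0.23 with ATRA, 0.66 with Cfz and 0.87 with ATRA+Cfz (limma adjusted p = 0.011, 4.3e-04 and 8.5e-06), the first lost without ATRA 2 (limma adjusted p = 0.051). RNF7, the RING paralogue of RBX1, rose by 0.30 with ATRA and 0.29 with ATRA+Cfz (limma adjusted p = 1.3e-03 and 0.012). CUL1 fell with ATRA (-0.26; limma adjusted p = 2.5e-05), and CSNK1E fell with ATRA and with ATRA+Cfz (-0.35 and -0.51; limma adjusted p = 1.3e-05 and 9.8e-06). IKZF2, which encodes Helios, ranged from 2.95 to 5.82 FPM and was not called against DMSO with all libraries; without DMSO 1 its Cfz difference was called (-0.69; limma adjusted p = 0.042). Without DMSO 3 the Cfz count was 4 of 15, and with DESeq2 it was 1. Over all genes the Cfz calls were 5449 and 2013 in these settings, beside 3948.

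Other reported cereblon neosubstrates were counted in the same way. Of 16 tested, 4 rose and 2 fell with ATRA, 0 rose and 5 fell with Cfz, and 3 rose and 5 fell with ATRA+Cfz, with median log2 differences of 0.02, -0.10 and -0.07. Beside the 48.7%, 24.9% and 50.6% of all genes called, the counts with Cfz and ATRA+Cfz are near the background. The Cfz count was 1 with edgeR, DESeq2 or median-of-ratios scaling and 1 to 6 with a library left out, lowest without DMSO 2 or ATRA 2. Over all genes the Cfz calls were 3556, 2013 and 3425 in those settings and 3321 to 5449 with a library left out, beside 3948. DESeq2 called 5 with ATRA+Cfz, and 5985 over all genes, beside 8002 in limma. GSPT1, a translation termination factor degraded with some cereblon modulators, stood at 389, 391 and 413 FPM in DMSO 1 to 3, at 419, 431 and 438 FPM in ATRA 1 to 3, at 390 FPM with Cfz and at 398 FPM with ATRA+Cfz. The ATRA libraries were above all others, a rise of 0.11 ± 0.04 (log2, SE; limma adjusted p = 0.022) that was lost without DMSO 1, DMSO 2, ATRA 2 or ATRA 3 (limma adjusted p = 0.084, 0.073, 0.08 and 0.1). ARID2, a chromatin remodeller subunit, fell with ATRA and with ATRA+Cfz (-0.41 and -0.43; limma adjusted p = 2.4e-06 and 2.5e-05), while ZMYM2 rose by 0.33 and 0.38 (limma adjusted p = 2.8e-05 and 1.5e-04). ZNF827 rose by 0.48 with ATRA and fell by 0.62 on the log2 scale with Cfz (limma adjusted p = 5.0e-04 and 2.9e-03).

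Among genes tied to Ikaros and Aiolos in myeloma, IRF4 and MYC moved apart with ATRA. Of 8 tested, 4 rose and 3 fell with ATRA, 0 rose and 2 fell with Cfz, and 3 rose and 2 fell with ATRA+Cfz, with median log2 differences of 0.09, -0.05 and -0.11. The share called over all genes was 48.7%, 24.9% and 50.6%. With Cfz, edgeR and DESeq2 each called 1 of the 8, and 3556 and 2013 over all genes, beside 3948 in limma. MYC stood at 338, 339 and 340 FPM in DMSO 1 to 3, at 674, 674 and 667 FPM in ATRA 1 to 3, at 339 FPM with Cfz and at 569 FPM with ATRA+Cfz. Both groups with ATRA were above both without it, with log2 differences from DMSO of 0.99 and 0.75 (limma adjusted p = 5.8e-10 and 7.1e-08). IRF4 stood at 1217, 1209 and 995 FPM in DMSO 1 to 3, at 830, 833 and 846 FPM in ATRA 1 to 3, at 1114 FPM with Cfz and at 958 FPM with ATRA+Cfz. It fell by 0.44 ± 0.07 with ATRA (log2, SE; limma adjusted p = 1.5e-04). Its ATRA+Cfz difference of -0.25 (limma adjusted p = 0.043) was lost without DMSO 1, DMSO 2 or any 1 of the ATRA libraries (limma adjusted p = 0.067 to 0.11), and with edgeR and DESeq2 (-0.18 in both; adjusted p = 0.11 and 0.073). With Cfz it was at -0.03 (limma adjusted p = 0.86), called as -0.12 without DMSO 3 (limma adjusted p = 9.4e-04). KLF2 rose by 0.97 and PRDM1, which encodes Blimp-1, by 0.58 with ATRA (limma adjusted p = 2.4e-07 and 3.2e-07), and KLF13 rose by 0.21 with ATRA and fell by 0.41 with Cfz (limma adjusted p = 2.8e-03 and 1.1e-03).

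Partners and clients that cereblon is reported to act on without a drug were few. Of 5 tested, 1 rose and 3 fell with ATRA, 0 rose and 3 fell with Cfz, and 0 rose and 4 fell with ATRA+Cfz, with median log2 differences of -0.21, -0.32 and -0.41, beside -0.03, -0.08 and -0.05 over all genes. Of all genes, 27.4%, 17% and 30.5% were called lower in these comparisons. GLUL, glutamine synthetase, stood at 112, 106 and 123 FPM in DMSO 1 to 3, at 74.0, 78.8 and 80.3 FPM in ATRA 1 to 3, at 87.2 FPM with Cfz and at 60.0 FPM with ATRA+Cfz. Every treated library was below every control and the ATRA+Cfz library was lowest. The log2 differences were -0.54, -0.38 and -0.91 (limma adjusted p = 7.7e-06, 4.9e-03 and 1.8e-06). BSG, the chaperone of monocarboxylate transporters, fell with ATRA and with ATRA+Cfz (-0.13 and -0.41; limma adjusted p = 4.9e-03 and 1.5e-05), the first not called with DESeq2 (-0.09; adjusted p = 0.095), and PRKAA1, a catalytic AMP kinase subunit, fell in each of the 3 comparisons (-0.34, -0.32 and -0.22; limma adjusted p = 3.6e-05, 2.4e-03 and 8.0e-03), the last not called with edgeR or DESeq2 (-0.15 in both; adjusted p = 0.067 and 0.2).

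**Figure D4:**
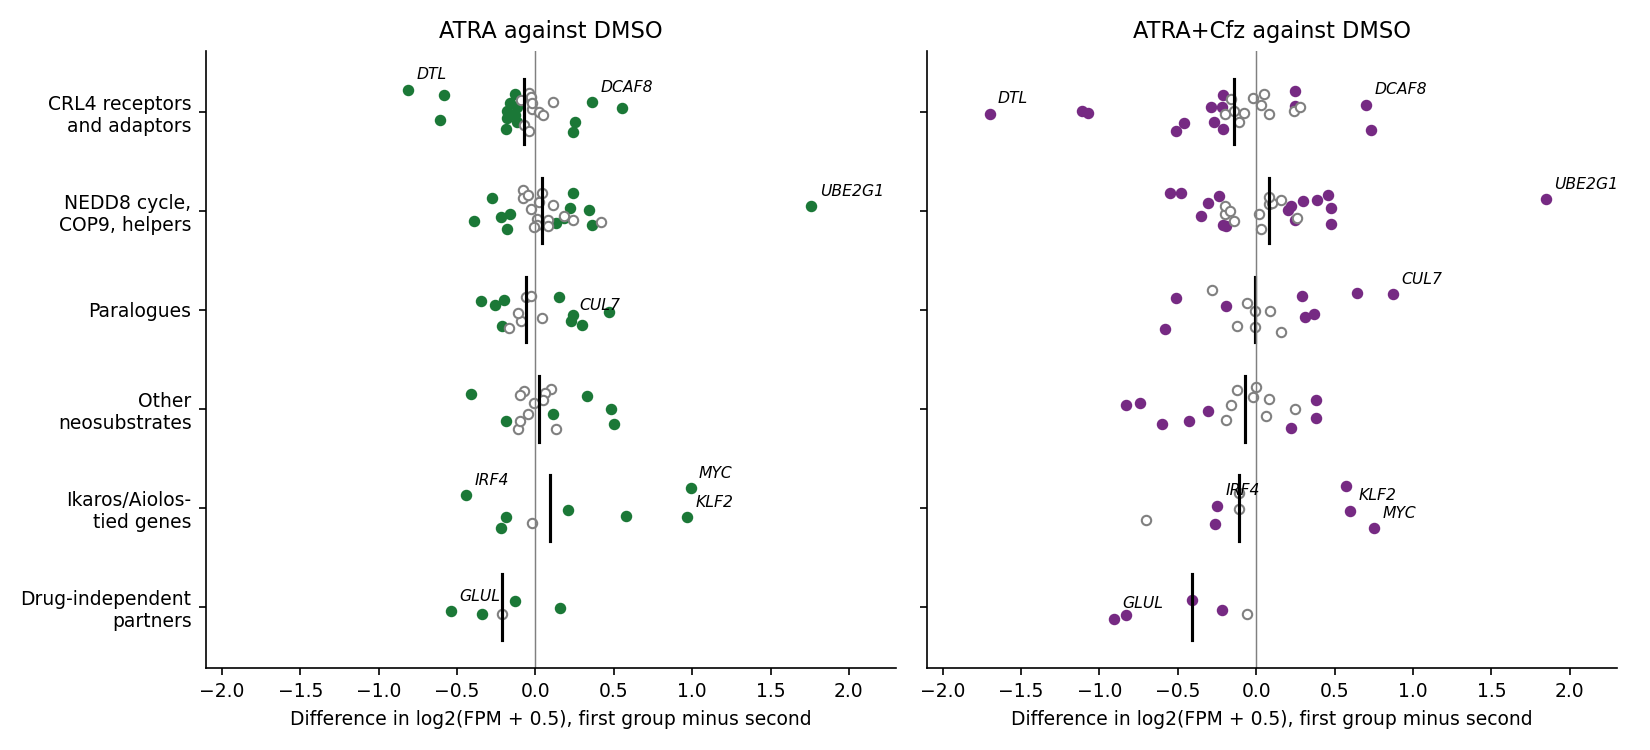
Log2 difference from DMSO (horizontal axes) with ATRA (left) and with ATRA+Cfz (right) for each tested gene of the 6 lists (rows); filled points are limma adjusted p-values under 0.05 and black bars are list medians. UBE2G1 lies farthest to the right (1.76 and 1.85) and DTL farthest to the left (-0.81 and -1.70).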

How the data were processed

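RNA sequencing was made of 8 MM.1S libraries in 4 lanes each, 32 samples. The authors deposited FPM values per lane, a CPM unit scaled to 1000000 fragments. Per the submitters' processing notes, fastp 0.20.0, kallisto 0.46.2 and DESeq2 were used; no build, annotation or strand setting is stated in the labels. Repeated gene IDs (143) were used once. Whole reads were recovered for 100% of values within 0.01 read.

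Lanes were averaged per library, since lane counts of the 9 genes differed by no more than sampling noise (the smallest p, multiplied by 8 libraries, was 0.14 for CUL4A). limma 3.58.1 in R 4.3.3 was fitted with an intensity trend on log2(FPM + 0.5) over all 8 libraries (4 residual and 7.2 prior degrees of freedom), so changes of low genes come out too small. Genes needed a mean of group means of at least 0.5 FPM, which left 15827. Calls are Benjamini-Hochberg adjusted p-values under 0.05. The fit was tested on simulated data for ATRA against DMSO only, with the same spread in every library. The simulation thus held no library that stood apart, as DMSO 3 did in the data. Comparisons with a carfilzomib group were not part of that test. The recovered reads, tested with edgeR 4.0.16 and DESeq2 1.42.0, gave 7748 and 5869 genes called with ATRA, beside 7704.

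The 9 genes and the lists were chosen with earlier results of these data known. Named were the 9 genes, IRF4, MYC, GSPT1, IKZF2 and GLUL, called list genes among the 6 of smallest p per comparison against DMSO, and the 3 nearest patterns per gene. Other alternatives were pseudocounts, filters, median-of-ratios scaling, robust empirical Bayes, a replicate block, lanes alone and leaving out each library. Intervals cover counting error and the spread between libraries only. List genes under the minimum or without a row used here were left out. Promoters came from RefSeq.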

Additional observations from a re-analysis of the deposited data

Results flagged for a closer look

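In 6 genes of the lists around the ligase, the ATRA difference after carfilzomib differed from that without it by the interaction test in limma. These were 2 of 25 receptors and adaptors, 3 of 27 NEDD8 cycle genes and helpers and 1 of 5 drug-independent partners. The other lists had 0, as did the 9 genes of the set, beside 2.3% of all genes tested. The difference of differences was -0.41 on the log2 scale for DTL, 0.30 for PHIP, -0.38 for UBE2M, -0.33 for COPS6, 0.36 for DCUN1D1 and 0.44 for PRKAA1. All 6 rest on 1 library per carfilzomib group, and each lost its call without any 1 of the ATRA libraries. PHIP, COPS6 and DCUN1D1 also lost it with DESeq2, COPS6 with edgeR, and PHIP, UBE2M, COPS6 and DCUN1D1 with a replicate block. DCUN1D1, a helper of NEDD8 transfer, stood at 96.0 FPM with Cfz, below the 121 to 128 FPM of all other libraries.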

How the results depend on the processing

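Over 1035 recomputed values for the 9 genes, 913 kept their direction and side of the threshold, 47 lost a call, 26 gained a call and 49 changed sign. The RBX1 fall with ATRA+Cfz against DMSO and the IKZF1, IKZF3 and ZFP91 differences with ATRA kept their calls under every alternative tried. Depth limits the lanes used alone, where fewer reads enter each value and calls over all genes fell to 4858, 4849, 4871 and 4880 (ATRA against DMSO), to 1422, 1437, 1332 and 1434 (Cfz against DMSO), to 5105, 5115, 5034 and 5114 (ATRA+Cfz against DMSO), to 2169, 2156, 2196 and 2195 (ATRA+Cfz against ATRA), to 2275, 2305, 2238 and 2283 (ATRA+Cfz against Cfz) and to 17, 3, 0 and 6 (interaction) in lanes 1 to 4. Of the 9 genes, 0 were then called with Cfz in lanes 2 and 3, 3 with ATRA+Cfz against ATRA in each lane and 1 with ATRA+Cfz against Cfz in each lane. DESeq2 called 2013 genes with Cfz, 2905 with ATRA+Cfz against ATRA and 3108 with ATRA+Cfz against Cfz, beside 3948, 4884 and 4818 in limma. Splits of calls between higher and lower also moved in ATRA+Cfz against ATRA (1681 and 3203, but 2029 and 2449 with edgeR) and in the interaction (157 and 207, but 121 and 419 with median-of-ratios scaling and 72 and 228 with DESeq2).

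Among the 9 genes, Cfz against DMSO had 2 calls with a filter at 5 FPM and 2 with median-of-ratios scaling, beside 1. Over all genes that scaling gave 3425 calls, beside 3948. ATRA+Cfz against DMSO had 5 calls with median-of-ratios scaling and 5 with edgeR, beside 3. Over all genes these gave 8023 and 7867, beside 8002. The interaction had 1 call with a filter at 5 FPM and 1 with median-of-ratios scaling, beside 0. Over all genes it had 548 calls with that filter and 540 with that scaling, beside 364. Leaving out 1 library gave 5 to 6 calls of 9 with ATRA, 1 to 5 with Cfz, 3 to 5 with ATRA+Cfz, 3 to 8 for ATRA+Cfz against ATRA, 2 to 4 for ATRA+Cfz against Cfz and 0 to 2 for the interaction. The counts of 5 with Cfz, 5 with ATRA+Cfz, 8 for ATRA+Cfz against ATRA and 2 for the interaction came without DMSO 3, and the count of 2 for ATRA+Cfz against Cfz came without ATRA 1 or ATRA 2. The single Cfz and ATRA+Cfz libraries could not be left out. Over all genes the ranges were 6683 to 8221, 3321 to 5449, 7445 to 8785, 3904 to 6392, 4300 to 6284 and 2 to 1986, and the interaction count was 240, 169 and 1986 without DMSO 1, 2 and 3 and 2, 8 and 16 without ATRA 1, 2 and 3. The cause of these differences was not tested.

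With the replicate number as a replicate block, 6, 1, 3, 4, 4 and 0 of the 9 genes were called in the 6 comparisons. CSNK1A1 was lost in ATRA+Cfz against ATRA. Over all genes the block gave 7621, 3853, 7944, 4788, 4698 and 241 calls, beside 7704, 3948, 8002, 4884, 4818 and 364 without it. Same-numbered DMSO and ATRA libraries did not deviate together (correlations of -0.00584, -0.00206 and 0.00555 over 15827 genes). Whether they were handled together is not stated in the labels, and these values cannot tell.

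Signs changed for differences that were not called with all libraries, ZNF692 with Cfz aside (0.04 in lane 3). For Cfz against DMSO, median-of-ratios scaling gave log2 differences of 0.02 for CUL4A, 0.04 for GSPT1, 0.07 for MYC and 0.04 for IRF4, DESeq2 gave 0.01, 0.03, 0.06 and 0.03, and edgeR gave 0.01 for GSPT1, 0.04 for MYC and 0.01 for IRF4. Lane 1 gave -0.03 for DDB1, lane 2 gave 0.02 for UBE2G1, 0.06 for MYC and 0.20 for IKZF2, lane 3 gave 0.09 for CUL4A, -0.03 for CUL4B and -0.07 for CSNK1A1, and lane 4 gave -0.01 for CRBN, -0.14 for CUL4B and 0.01 for MYC. For ATRA+Cfz against DMSO, IKZF1 was at 0.03, 0.04 and 0.05 and CSNK1A1 at 0.05, 0.07 and 0.07 with median-of-ratios scaling, DESeq2 and edgeR. Lane 1 gave 0.21 for IKZF2, lane 2 gave 0.00 for CSNK1A1, -0.05 for GSPT1 and 0.02 for IKZF2, lane 3 gave 0.03 for IKZF1, and lane 4 gave -0.02 for DDB1, 0.05 for CUL4A, -0.02 for CUL4B, 0.01 for IKZF1, 0.07 for CSNK1A1 and -0.02 for GSPT1. With ATRA alone, lane 2 gave 0.06 for RBX1 and 0.15 for IKZF2, and lane 3 gave 0.02 for IKZF2. For ATRA+Cfz against ATRA, ZFP91 was at 0.01, 0.02 and 0.03 with median-of-ratios scaling, DESeq2 and edgeR and 0.05 in lane 2, and CUL4A at 0.01 in lane 4. For ATRA+Cfz against Cfz, DDB1 was at 0.01 with DESeq2, 0.03 with edgeR, 0.07 in lane 1 and 0.04 in lane 3, CSNK1A1 at 0.00 with DESeq2, 0.03 with edgeR and 0.07 in lane 4, CUL4A at 0.24 in lane 4 and CUL4B at -0.04 in lane 2. In the interaction, IKZF3 was at -0.02 with median-of-ratios scaling, -0.04 in lane 3 and -0.01 in lane 4, and CUL4A at 0.20 in lane 4. With 1 library left out, the signs that changed spanned -0.26 to 0.06 for IKZF2 with ATRA, -0.01 to 0.02 for CUL4B and for CSNK1A1 and -0.12 (called, without DMSO 3) to 0.02 for IRF4 with Cfz, -0.08 to 0.00 for IKZF1, -0.01 to 0.02 for CSNK1A1, -0.01 to 0.03 for GSPT1 and -0.28 to 0.04 for IKZF2 with ATRA+Cfz, -0.02 to 0.01 for ZFP91 in ATRA+Cfz against ATRA and -0.03 to 0.12 for IKZF3 in the interaction. MYC with Cfz stayed at -0.00 to 0.00.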
